A study of Sus scrofa with 8 samples.

Results

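The collagen genes of the pig were followed across normal peritoneum, native bladder mucosa and the mucosa of 2 kinds of ileal neobladder. They were taken as every gene of the count files whose symbol reads COL, a number, A and a number, with a total of 10 or more counts over the 8 libraries, which gave 40 of 31907 genes. All 40 genes with such a symbol met that minimum: COL22A1 had exactly 10 counts, COL9A1 had 11, and no gene lay below it. The set is not complete, since no gene carried the symbol COL7A1, COL9A2, COL20A1 or COL26A1. COL7A1 would have been counted with the basement membrane genes. The series tried peritoneum, the membrane of the abdominal cavity, as a graft to replace the mucosa of a neobladder, which is a bladder substitute made of bowel (ileum). Each of the 4 groups held 2 libraries from Guizhou minipigs aged 8 months: normal peritoneum (NP), mucosa of the normal bladder (MNB), mucosa of the neobladder of the experimental group (MN-Exp) and mucosa of the neobladder of the control group (MN-Ctrl). The labels state neither how the control neobladder was lined, nor the time since surgery, nor the sex of the animals, nor whether replicates came from separate animals, so p-values measure the spread between these samples, which may be technical.

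Collagens are proteins whose chains wind into a triple helix, and each gene encodes a single chain. Fibrillar collagens (types I, II, III, V, XI, XXIV and XXVII) form the cross-banded fibrils that carry tension in connective tissue, and fibril-associated collagens coat those fibrils and set their spacing. Type IV collagen builds the sheet-like network of basement membranes under epithelium, endothelium and mesothelium and around muscle, with types XV and XVIII lying at its margin. Types VIII and X form other networks, type VI forms beaded filaments, and the transmembrane collagens sit in the cell membrane, type XVII in the hemidesmosomes that fix basal epithelial cells to the basement membrane. In bladder and gut most fibrillar collagen is made by fibroblasts and smooth muscle cells of the wall. By these classes the 40 genes held 11 fibrillar, 8 fibril-associated, 8 network and beaded filament, 8 basement membrane and 4 transmembrane members, and COL28A1, which was kept apart.

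Library totals ran from 7.94 to 11.9 M counts, and between 34 and 40 of the collagen genes had a count in each library. Each level below is in counts per M (CPM) after trimmed mean of M-values (TMM) scaling, with factors that were 0.839 and 0.449 in the control neobladder and 1.09 to 1.24 elsewhere, so that control replicate 2 stands apart. Wilms tumour gene WT1, a mesothelial marker, stood at 27.7 and 25.3 CPM in peritoneum and at 0 to 0.187 CPM in every other library. Calretinin (CALB2), also mesothelial, had 0 counts in all 8 libraries, and only these 2 of 5 mesothelial markers carried a symbol. Summed over 5 genes, urothelium markers ran from 3923 to 9345 CPM in native bladder and experimental neobladder and from 55.1 to 938 CPM in the other groups. Enterocyte markers, also 5 genes, reached 34891 and 159115 CPM in the control neobladder and 27.5 to 45.3 CPM elsewhere. Summed fibroblast markers (6 of 6 found) stood at 13762 and 19709 CPM in peritoneum, 2606 and 2160.2 CPM in native bladder, 967 and 1182 CPM in experimental and 639 and 684 CPM in control neobladder. Leukocyte markers (4 genes) stood at 375 and 215 CPM in control neobladder and at 99.7 to 205 CPM elsewhere. Chondrocyte markers (3 genes) summed to 38.2 and 8.06 CPM in control neobladder and 0.178 to 11.1 CPM elsewhere, but did not move together. Nearly all of the control sum was SOX9, at 37.9 and 7.49 CPM. ACAN stood at 0.327 and 0.562 CPM and MATN1 at 0 in control neobladder, and ACAN was highest in peritoneum replicate 1, at 5.30 CPM. Since these are bulk tissues, fewer cells of a type and less RNA per cell cannot be told apart.

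Collagen transcripts were most abundant in peritoneum and least abundant in the control neobladder. Summed over the 40 genes they stood at 46129 and 58884 CPM in the 2 peritoneum libraries, 13157 and 14967 CPM in native bladder, 3991 and 4012 CPM in experimental neobladder and 2551 and 1020.2 CPM in control neobladder. No library of one group overlapped with a library of another. The mean of the experimental neobladder was 13.1-fold below that of peritoneum, 3.51-fold below that of native bladder and 2.24-fold above that of the control neobladder. These sums are descriptions without a test. The summed fibroblast markers given above had the same order of groups, but the opposite order of libraries within native bladder and within control neobladder. Their part in the collagen sums was not tested.

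**Figure D1:**
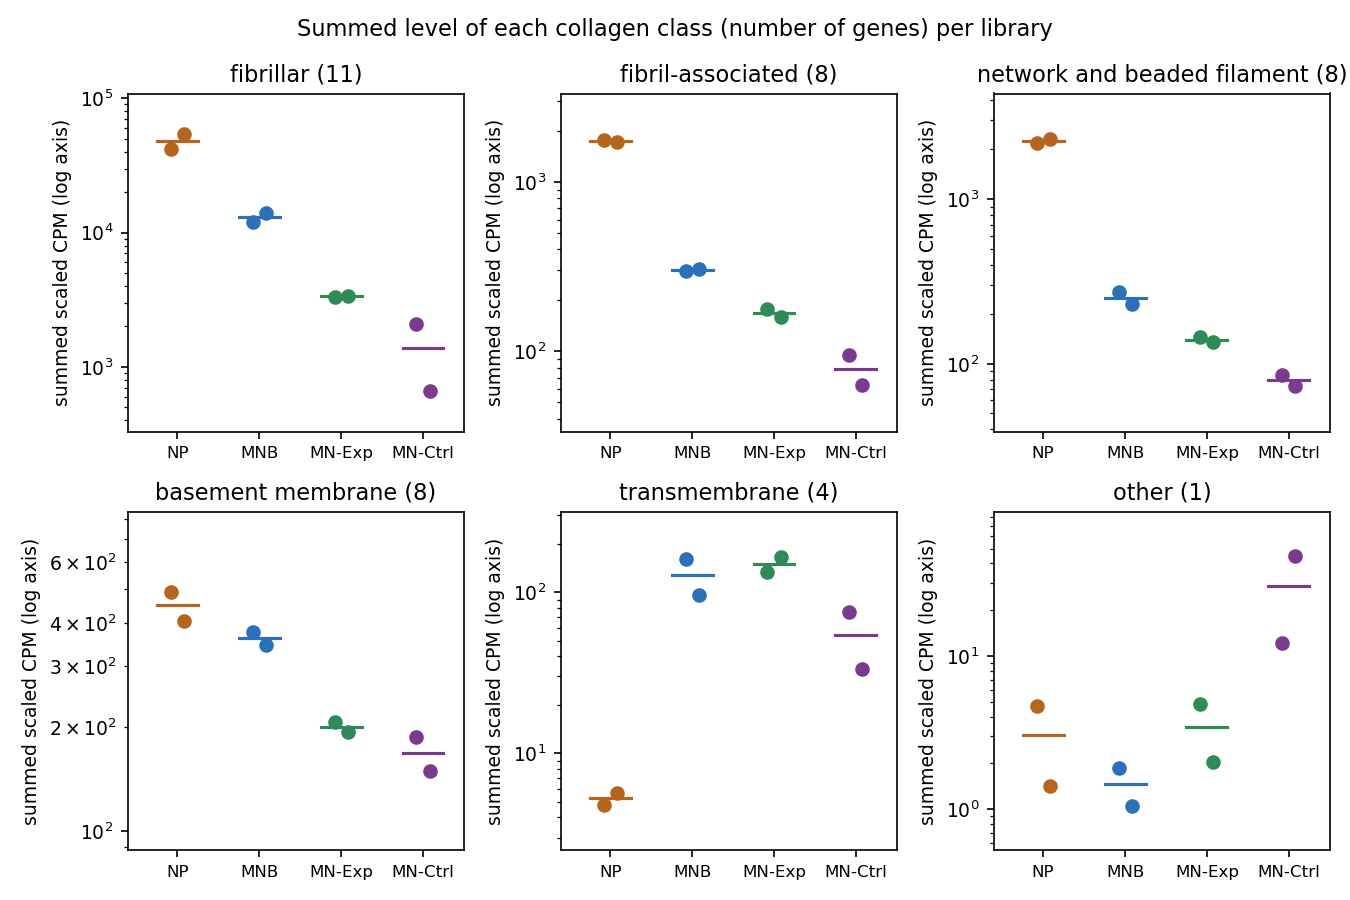
Summed scaled CPM (log axis) of the genes of each collagen class in each library, by group; points are the 2 libraries and bars their mean. Fibrillar genes stand at 41679.5 and 54453 CPM in peritoneum (NP) and at 2096 and 655 CPM in the control neobladder (MN-Ctrl), while transmembrane genes are lowest in peritoneum, at 4.79 and 5.70 CPM.

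The classes did not follow 1 course. Fibrillar genes summed to 48066 ± 9033 CPM in peritoneum (SD, n = 2), 13018 ± 1369.5 CPM in native bladder, 3340.5 ± 23.4 CPM in experimental and 1376 ± 1019 CPM in control neobladder. Network and beaded filament genes spanned a similar range, from 2185 and 2299 CPM in peritoneum to 85.8 and 73.6 CPM in control neobladder. Basement membrane genes spanned a narrower one, with 493 and 406 CPM in peritoneum, 377 and 345 CPM in native bladder, 207 and 194 CPM in experimental and 187 and 149.5 CPM in control neobladder. Transmembrane genes, whose sum outside peritoneum came mostly from COL17A1, were lowest in peritoneum, at 4.79 and 5.70 CPM in peritoneum against 159.5 and 95.8 CPM in native bladder, 133 and 165 CPM in experimental and 75.0 and 33.5 CPM in control neobladder. The make-up of the collagen counts differed accordingly. Fibrillar genes took 90.4% (Wilson 90.3 to 90.4%) and 92.5% (Wilson 92.4 to 92.5%) of collagen counts in peritoneum, and 91.6% (Wilson 91.4 to 91.7%) and 93.4% (Wilson 93.3 to 93.6%) in native bladder. In the experimental neobladder the shares were 83.3% (Wilson 82.9 to 83.6%) and 83.7% (Wilson 83.3 to 84.0%), and in the control neobladder 82.2% (Wilson 81.7 to 82.6%) and 64.2% (Wilson 63.0 to 65.5%), where the intervals cover counting error only. Basement membrane genes took 7.34% (Wilson 7.01 to 7.68%) and 14.7% (Wilson 13.7 to 15.6%) of collagen counts in control neobladder and 1.07% (Wilson 1.04 to 1.1%) and 0.689% (Wilson 0.670 to 0.710%) in peritoneum.

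Single genes were tested in 1 fit of all 16549 genes that passed a filter on low counts, among them 36 of the 40 collagen genes. Each fold change is on a log2 scale and carries its standard error (SE), and p-values are from edgeR's quasi-likelihood test with Benjamini-Hochberg adjustment over all genes tested; a gene with an adjusted p under 0.05 is called. Over the 4 groups at once, 27 of those 36 (75%) were called, against 44.5% of all genes tested. In the 6 pairwise comparisons 28 collagen genes were called at least once and 8 never. The share of all genes called at least once was not computed, so these 2 counts have no background to be read against. The 4 that did not pass the filter were COL2A1, COL9A1, COL9A3 and COL22A1, chains of cartilage and, for COL22A1, of tissue junctions; the highest level among them was that of COL9A3 in peritoneum, at 0.611 and 1.69 CPM in its 2 libraries. Of the 36, 24 had their highest group mean in peritoneum and 21 their lowest in the control neobladder. The order peritoneum, native bladder, experimental, control neobladder held for 17. Highest and lowest groups were not counted over all genes tested, so these counts also have no background to be read against.

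**Figure D2:**
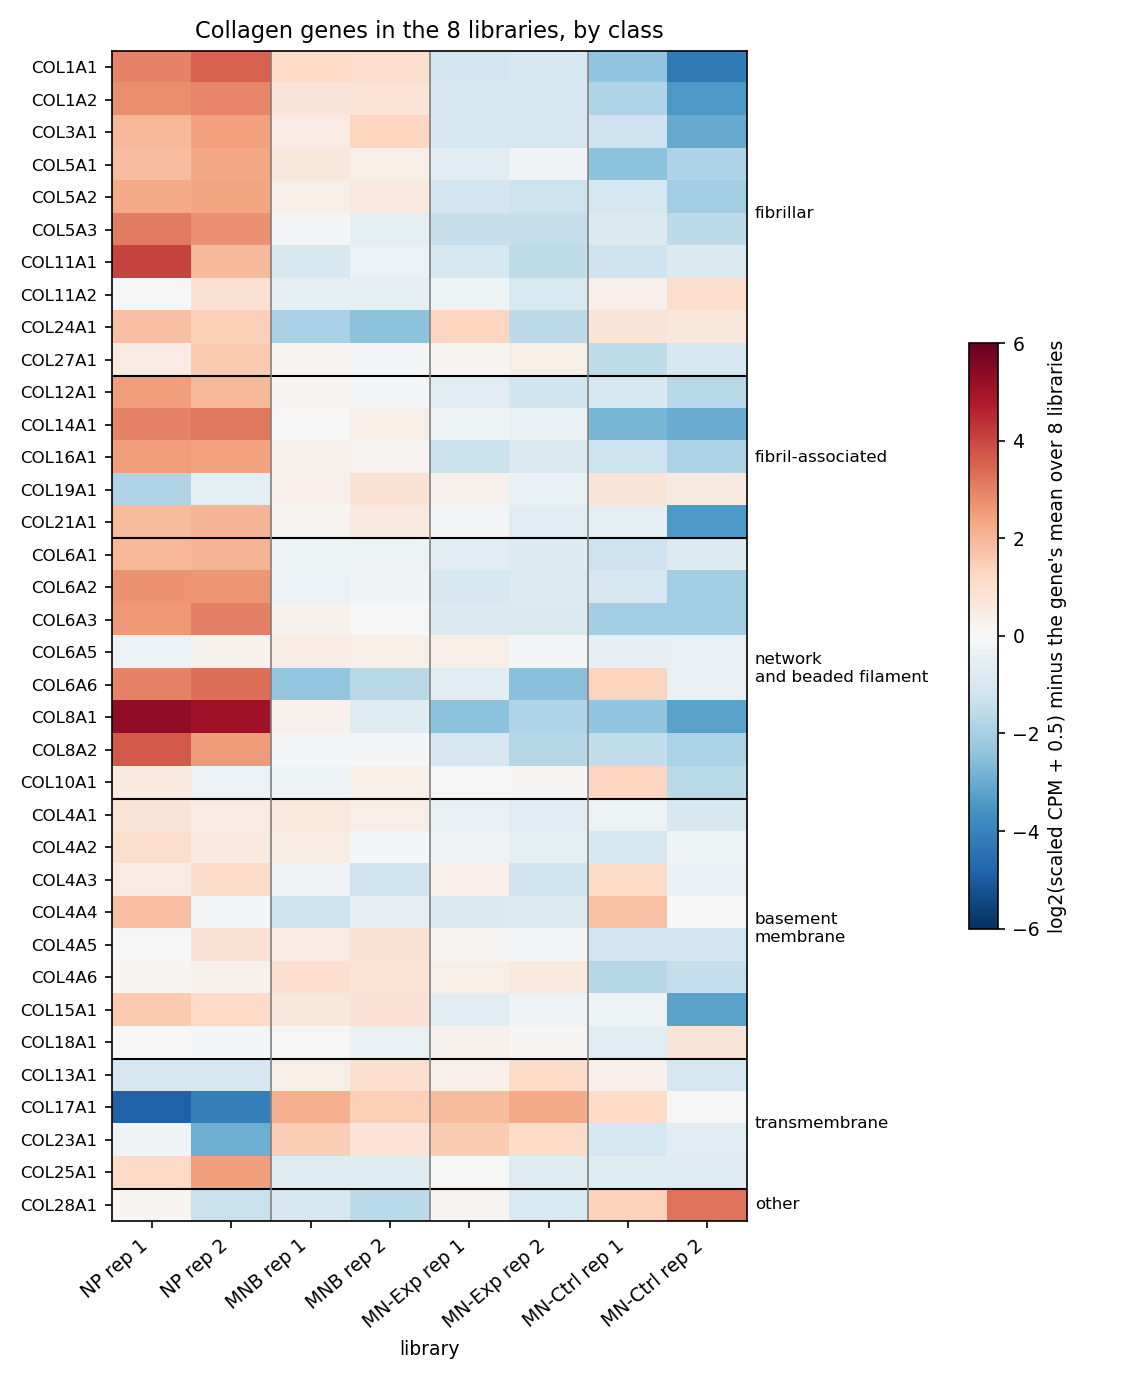
Each row is a tested collagen gene and each column a library; colour gives log2(scaled CPM + 0.5) minus that gene's mean over the 8 libraries. Red cells fill the 2 peritoneum columns for most fibrillar, fibril-associated and network genes, while COL17A1 is lowest there, at 0.611 and 1.43 CPM, and COL28A1 is highest in the control neobladder, at 12.1 and 44.8 CPM.

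Type I collagen, the main fibril of scar, dermis and organ walls, was measured through both of its chains. COL1A1 stood at 14032 and 21332 CPM in the 2 peritoneum libraries, 4144 and 3747 CPM in native bladder, 812 and 889.6 CPM in experimental and 355 and 95.9 CPM in control neobladder. COL1A2 stood at 18528 and 20529 CPM, 4650.1 and 4776 CPM, 1344 and 1309 CPM and 772 and 252 CPM in the same order. For both chains the 4 groups did not overlap. COL1A2 was lower in experimental neobladder than in peritoneum (log2 fold change -3.88, SE 0.72, adjusted p = 0.00337) and lower in control neobladder than in native bladder (log2 fold change -3.20, SE 0.69, adjusted p = 0.00901). Its difference between experimental neobladder and native bladder did not pass (log2 fold change -1.83, SE 0.66, adjusted p = 0.46). COL3A1, the chain of type III collagen that mixes into the fibrils of distensible organs, stood at 8496 and 11927 CPM in peritoneum, 3082 and 5293 CPM in native bladder, 1091 and 1082 CPM in experimental and 915 and 267 CPM in control neobladder. It was lower in both neobladders than in peritoneum (adjusted p = 0.00938 for experimental, adjusted p = 0.00194 for control). COL1A2 no longer passed against peritoneum without experimental replicate 1 or 2 (adjusted p from 0.0525 to 0.0602), and COL3A1 without experimental replicate 1 or 2 (adjusted p from 0.0935 to 0.106). The call of COL1A2 between control neobladder and native bladder was lost without native bladder replicate 1 or 2 (adjusted p from 0.0516 to 0.0545).

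Type V collagen starts fibrils and limits their width. COL5A1 stood at 147 and 199.7 CPM in peritoneum, 63.8 and 50.5 CPM in native bladder, 25.5 and 34.0 CPM in experimental and 6.86 and 10.9 CPM in control neobladder. The groups did not overlap, and COL5A1 was called in every comparison but that of experimental neobladder with native bladder (log2 fold change -0.94, SE 0.38, adjusted p = 0.544). It rose from control to experimental neobladder (log2 fold change 1.76, SE 0.40, adjusted p = 0.0115), a call lost without experimental replicate 2 (adjusted p = 0.102). Against native bladder, peritoneum was no longer called without peritoneum replicate 2 or native bladder replicate 1 or 2 (adjusted p from 0.0996 to 0.152). Its partner COL5A2 stood at 32.0 and 29.4 CPM in experimental and 34.6 and 16.3 CPM in control neobladder, which overlapped (log2 fold change 0.26, SE 0.41, adjusted p = 0.681), and at 351 and 370.0 CPM in peritoneum and 92.7 and 106 CPM in native bladder. COL5A3, the other type V chain, stood at 70.5 and 54.3 CPM in peritoneum and at 2.25 to 7.19 CPM in the other 6 libraries (log2 fold change 3.34 against native bladder, adjusted p = 0.000453).

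Among the other fibrillar genes, COL11A1, which with type V controls fibril width, stood at 32.1 and 6.95 CPM in peritoneum and at 0.185 to 1.05 CPM elsewhere (log2 fold change 4.64, SE 0.84, adjusted p = 0.00392 against native bladder). The 2 peritoneum libraries differed widely, and the call was lost without peritoneum replicate 1 (adjusted p = 0.0566). COL24A1, a minor fibrillar chain first known from developing bone, stood at 10.5 and 8.02 CPM in peritoneum, 0.323 and 0.0747 CPM in native bladder, 7.12 and 0.556 CPM in experimental and 4.79 and 4.50 CPM in control neobladder. Native bladder was lowest, and the 2 experimental libraries stood far apart, 1 near peritoneum and 1 near native bladder. COL24A1 was higher in peritoneum (log2 fold change 5.48, SE 1.16, adjusted p = 0.00825) and in control neobladder (log2 fold change 4.49, SE 1.15, adjusted p = 0.0201) than in native bladder, the second call being lost on library totals alone (adjusted p = 0.0519) and without native bladder replicate 1 or 2 (adjusted p from 0.068 to 0.128). The call in peritoneum was lost without native bladder replicate 2 (adjusted p = 0.0684). COL27A1, a cartilage-type fibrillar chain, stood at 8.48 and 10.1 CPM in experimental and 2.40 and 3.56 CPM in control neobladder (log2 fold change 1.66, SE 0.52, adjusted p = 0.0435), beside 11.0 and 24.1 CPM in peritoneum and 8.48 and 7.17 CPM in native bladder. With DESeq2 size factors in place of TMM, COL27A1 did not pass (adjusted p = 0.0586), nor without native bladder replicate 1 or 2, experimental replicate 1 or 2 or control replicate 1 (adjusted p from 0.0733 to 0.199). COL11A2 was not called in any comparison and ran from 0.185 to 2.25 CPM.

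Of the 5 fibril-associated genes tested, all but COL19A1 had their highest group mean in peritoneum. COL14A1, the coat of mature fibrils, stood at 832 and 977 CPM in peritoneum, 106 and 136 CPM in native bladder, 85.1 and 78.9 CPM in experimental and 15.5 and 13.3 CPM in control neobladder. The groups did not overlap, and the experimental neobladder lay close to native bladder (log2 fold change -0.56, SE 0.39, adjusted p = 0.839) and well above the control (log2 fold change 2.51, SE 0.41, adjusted p = 0.002). That rise was called without each of the 8 libraries in turn. COL12A1, its relative in tissues under load, stood at 512 and 343 CPM in peritoneum, 100.1 and 81.7 CPM in native bladder, 56.4 and 38.6 CPM in experimental and 45.3 and 28.1 CPM in control neobladder, and the 2 neobladders overlapped. COL16A1 stood at 391 and 365 CPM in peritoneum, 80.3 and 76.5 CPM in native bladder, 27.0 and 37.2 CPM in experimental and 27.1 and 18.5 CPM in control neobladder. Both COL12A1 and COL16A1 were higher in peritoneum than in native bladder (log2 fold changes 2.23 and 2.27, adjusted p = 0.00513 and adjusted p = 0.00253), the first call being lost without native bladder replicate 1 or 2 (adjusted p from 0.0552 to 0.0742). COL21A1, found in vessel walls, stood at 27.5 and 30.4 CPM in peritoneum and at 4.46 and 0.187 CPM in control neobladder (log2 fold change -3.52, SE 0.80, adjusted p = 0.00611), with 7.92 and 10.8 CPM in native bladder and 6.61 and 4.08 CPM in experimental neobladder. COL19A1, a rare chain of the same class, ran from 0 to 2.69 CPM and was not called.

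Of the network and beaded filament genes, COL8A1, a short-chain collagen of vessel walls and of the membrane under corneal endothelium, stood far higher in peritoneum. It stood at 1063 and 884 CPM in peritoneum, 31.7 and 15.7 CPM in native bladder, 4.41 and 7.14 CPM in experimental and 4.68 and 2.44 CPM in control neobladder. The log2 fold change was 5.36 in peritoneum against native bladder (SE 0.58, adjusted p = 0.000221) and -7.40 in experimental neobladder against peritoneum (SE 0.64, adjusted p = 5.42e-05). Its partner COL8A2 stood at 32.9 and 14.5 CPM in peritoneum and 1.94 and 1.94 CPM in native bladder (log2 fold change 3.60, SE 0.62, adjusted p = 0.00283), and at 0.187 to 0.763 CPM in the neobladders. Endothelial markers were also highest in peritoneum, at 1899 and 1430.5 CPM summed over 4 found genes, as were the summed fibroblast and adipocyte markers. In native bladder the endothelial sum was 351 and 425 CPM, in experimental neobladder 379 and 341 CPM and in control neobladder 176 and 96.9 CPM. Native bladder and experimental neobladder thus overlapped for this sum, but not for COL8A1 or COL8A2. The part of these cell types in the difference was not tested.

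The 3 classical chains of type VI collagen, which links cells to the surrounding matrix, were all higher in peritoneum than in each other tissue. COL6A1 stood at 64.0 and 66.1 CPM in peritoneum, 13.2 and 12.8 CPM in native bladder, 9.49 and 8.99 CPM in experimental and 6.32 and 8.81 CPM in control neobladder. COL6A2 stood at 54.6 and 52.0 CPM, 6.22 and 7.10 CPM, 3.81 and 4.36 CPM and 3.70 and 1.5 CPM in the same order. COL6A3 stood at 908 and 1202 CPM, 175 and 152 CPM, 82.5 and 82.3 CPM and 34.4 and 34.7 CPM, and only this chain was called between the neobladders (log2 fold change 1.25, SE 0.40, adjusted p = 0.0473). That call was lost with DESeq2 size factors (adjusted p = 0.0707), when the fit held a replicate block (adjusted p = 0.0718), with no low-count filter (adjusted p = 0.0634) and without peritoneum replicate 1 or 2, native bladder replicate 1 or 2 or experimental replicate 1 or 2 (adjusted p from 0.0774 to 0.222). Of the alternative chains, COL6A5 stood at 22.2 to 42.9 CPM in all 8 libraries and was not called. COL6A6 stood at 35.1 and 43.3 CPM in peritoneum, 0.404 and 0.897 CPM in native bladder, 2.29 and 0.278 CPM in experimental and 10.8 and 2.81 CPM in control neobladder, higher in peritoneum than in each other tissue (log2 fold change 5.88, adjusted p = 0.00167 against native bladder). The call of peritoneum over control neobladder (adjusted p = 0.0238) was lost without peritoneum replicate 1 or 2 or control replicate 2 (adjusted p from 0.0515 to 0.0918). The control neobladder lay above native bladder (log2 fold change 3.39, SE 0.88, adjusted p = 0.021), a call lost on library totals alone (adjusted p = 0.0806) and without native bladder replicate 1 or 2 or control replicate 1 (adjusted p from 0.0686 to 0.149). COL10A1, the chain of growth plate cartilage, ran from 0 to 3.27 CPM and was not called.

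**Figure D3:**
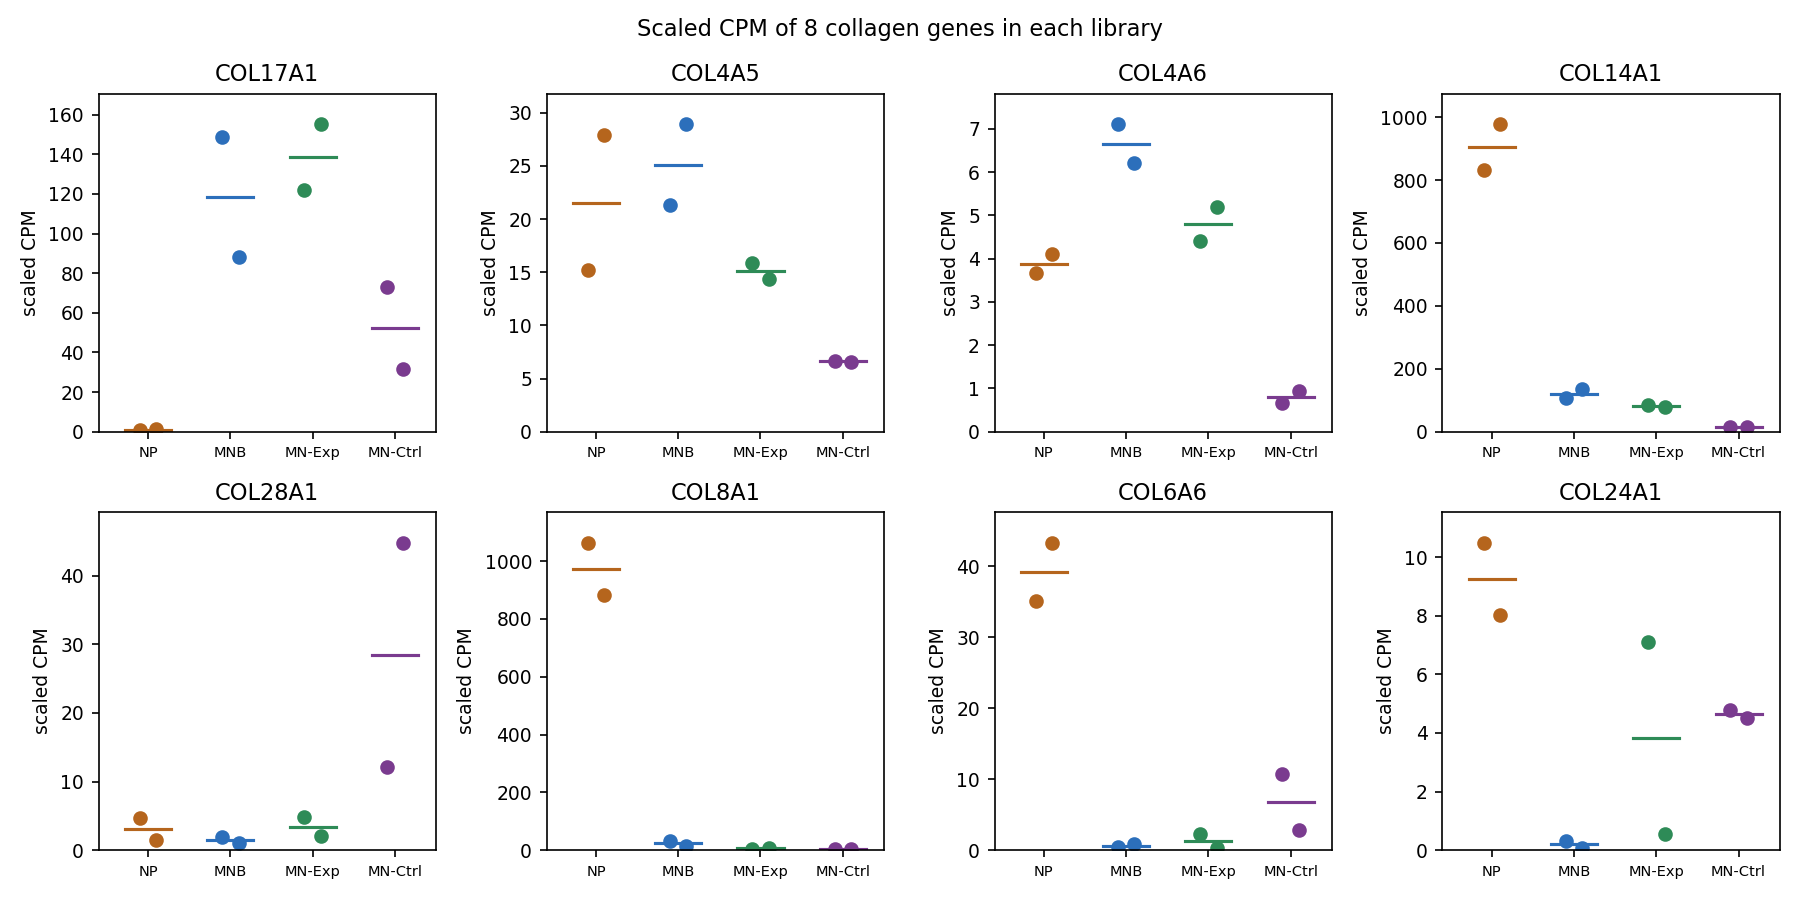
Scaled CPM of 8 collagen genes in each library by group; points are libraries and bars group means, each axis starting at 0. COL17A1, COL4A5 and COL4A6 are present in native bladder and experimental neobladder above the control, COL28A1 is highest in the control neobladder, and COL8A1 reaches 1063 and 884 CPM in peritoneum.

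Basement membrane genes spanned a narrower range of levels than the fibrillar ones. COL4A1, a chain of the type IV heterotrimer found in nearly all basement membranes, stood at 199 and 164 CPM in peritoneum, 181 and 153 CPM in native bladder, 87.0 and 72.6 CPM in experimental and 92.8 and 59.2 CPM in control neobladder. Its partner COL4A2 stood at 77.6 and 55.9 CPM, 51.5 and 35.4 CPM, 32.0 and 26.0 CPM and 18.8 and 30.7 CPM in the same order. Peritoneum and native bladder overlapped for COL4A1, as did the 2 neobladders for both chains. Both chains were lower in each neobladder than in peritoneum (COL4A1 log2 fold changes -1.18 for experimental and -1.25 for control, adjusted p = 0.0443 and adjusted p = 0.0227). For COL4A1 the call of experimental neobladder was lost without peritoneum replicate 1 or 2, native bladder replicate 1 or 2 or experimental replicate 1 or 2 (adjusted p from 0.102 to 0.311). It was also lost on library totals alone (adjusted p = 0.112) and with no low-count filter (adjusted p = 0.0763). The call of COL4A1 in control neobladder was lost without peritoneum replicate 1 or 2, native bladder replicate 1 or 2 or experimental replicate 1 or 2 (adjusted p from 0.0519 to 0.131). For COL4A2 the call of experimental neobladder (adjusted p = 0.0488) was lost on library totals alone (adjusted p = 0.0619), with no filter (adjusted p = 0.062), in the fit with a replicate block (adjusted p = 0.0638) and without peritoneum replicate 1 or 2, native bladder replicate 1 or 2 or experimental replicate 1 or 2 (adjusted p from 0.0876 to 0.305). That of control neobladder (adjusted p = 0.0158) was lost without peritoneum replicate 1 (adjusted p = 0.103). Pericyte and endothelial cells make much of this heterotrimer. Summed pericyte markers (4 genes) ran from 308 and 258 CPM in peritoneum to 197 and 129 CPM in control neobladder, but did not move together. Nearly all of the control sum was RGS5, at 183 and 120 CPM, which overlapped with peritoneum (126 and 92.3 CPM). PDGFRB fell from 107 and 95.3 CPM in peritoneum to 9.91 and 5.62 CPM in control neobladder. CSPG4 and NOTCH3 were also lower in both control libraries than in both peritoneum libraries. The part of these markers was not tested. COL15A1, a multiplexin of vessel and muscle basement membranes, stood at 165 and 126 CPM in peritoneum, 88.6 and 101 CPM in native bladder, 35.5 and 47.7 CPM in experimental and 46.0 and 5.43 CPM in control neobladder. Among the 6 comparisons peritoneum against control neobladder alone was called (log2 fold change -2.48, SE 0.73, adjusted p = 0.0201), a call lost without peritoneum replicate 1 or 2 (adjusted p from 0.0517 to 0.0713), and the 2 control libraries stood far apart.

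The minor type IV chains split from the main pair. COL4A5, which enters the basement membranes of epithelium and smooth muscle, stood at 15.2 and 27.9 CPM in peritoneum, 21.3 and 28.9 CPM in native bladder, 15.9 and 14.4 CPM in experimental and 6.64 and 6.56 CPM in control neobladder. COL4A6, its partner under smooth muscle and some epithelia, stood at 3.67 and 4.10 CPM, 7.11 and 6.20 CPM, 4.41 and 5.19 CPM and 0.653 and 0.937 CPM in the same order, from 6 and 5 counts in the control libraries. The control neobladder was lowest for both and overlapped with no other group. COL4A6 rose from control to experimental neobladder (log2 fold change 2.61, SE 0.61, adjusted p = 0.013), a call lost without experimental replicate 2 (adjusted p = 0.0836), and was lower in control neobladder than in native bladder (log2 fold change -3.08, SE 0.61, adjusted p = 0.00576). COL4A5 was lower in control neobladder than in native bladder (log2 fold change -1.93, SE 0.42, adjusted p = 0.0096) and than in peritoneum (adjusted p = 0.00901), and did not pass between the neobladders (log2 fold change 1.19, SE 0.42, adjusted p = 0.0665). Its calls were lost without native bladder replicate 2 (adjusted p = 0.0799) against native bladder and without peritoneum replicate 2 (adjusted p = 0.0995) against peritoneum. Against native bladder neither gene passed in experimental neobladder (COL4A5 log2 fold change -0.73, SE 0.40, adjusted p = 0.729; COL4A6 log2 fold change -0.47, SE 0.52, adjusted p = 0.948). Summed smooth muscle markers (6 genes) stood at 5237 and 5999 CPM in experimental, 4598 and 4622 CPM in native bladder and 1001 and 1033 CPM in control neobladder. In peritoneum they stood at 1227 and 1157 CPM. Not all 6 followed the sum, and 3 were called lower in control neobladder than in native bladder. CNN1 stood at 5.88 and 3.93 CPM in control neobladder and 4.77 and 2.91 CPM in native bladder, and DES overlapped between these groups. The part of the smooth muscle markers was not tested. COL4A3 and COL4A4, which pair with COL4A5 in kidney and lung, ran from 0 to 2.07 CPM and 0 to 3.77 CPM and were not called. COL18A1, the precursor of endostatin, ran from 16.7 to 45.5 CPM, its control libraries spanning those of every other group, and was not called in any pair (experimental against control neobladder log2 fold change -0.08, SE 0.46, adjusted p = 0.926).

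COL17A1 gave most of the sum of the transmembrane class outside peritoneum, while COL25A1 was highest in peritoneum. COL17A1, the hemidesmosomal collagen of basal epithelial cells, had 6 and 16 counts in peritoneum (0.611 and 1.43 CPM). It stood at 149 and 88.0 CPM in native bladder, 122 and 155 CPM in experimental and 73.0 and 31.7 CPM in control neobladder. Native bladder and experimental neobladder overlapped (log2 fold change 0.23, SE 0.49, adjusted p = 0.995), and the control neobladder lay below both without passing the test (log2 fold change 1.40, SE 0.50, adjusted p = 0.0695 for experimental against control). COL17A1 was 136-fold higher in experimental neobladder than in peritoneum (log2 fold change 7.05, SE 0.66, adjusted p = 8.21e-05), and also higher in control neobladder than in peritoneum (log2 fold change 5.65, SE 0.63, adjusted p = 0.000107). Of the basal epithelial markers, 3 were found: TP63 stood at 31.3 and 47.0 CPM in native bladder, 32.5 and 36.7 CPM in experimental and 0.218 and 0 CPM in control neobladder, while the laminin chain LAMB3 stood at 138 and 83.2 CPM, 113 and 169 CPM and 51.2 and 15.6 CPM. The integrin chain ITGB4 stood at 59.2 and 27.6 CPM, 43.2 and 43.9 CPM and 56.3 and 11.1 CPM in that order, and at 16.9 and 23.6 CPM in peritoneum. The control mucosa thus held COL17A1, LAMB3 and ITGB4 counts with TP63 at or near 0. The part of these markers in the differences of COL17A1 was not tested.

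COL23A1, another transmembrane collagen, stood at 9.94 and 6.20 CPM in native bladder, 10.4 and 7.70 CPM in experimental and 1.31 and 1.87 CPM in control neobladder, and at 2.75 and 0 CPM in peritoneum, with no call (log2 fold change 2.53, SE 1.07, adjusted p = 0.118 between the neobladders). It passed with no low-count filter, with the 2 groups alone and without either peritoneum library (adjusted p = 0.0119 and adjusted p = 0.0124). COL13A1, a collagen of cell adhesion sites, had 0 counts in peritoneum and 9 and 18 counts in experimental neobladder, at least 8.53-fold higher when peritoneum is set to 3 counts over its 2 libraries (adjusted p = 0.0402), a call lost on library totals alone (adjusted p = 0.0705), with a replicate block (adjusted p = 0.0622) and without peritoneum replicate 1 or 2, native bladder replicate 1 or 2 or experimental replicate 1 or 2 (adjusted p from 0.0776 to 0.198). Against native bladder COL13A1 was lower in peritoneum (adjusted p = 0.0449), a call lost on library totals alone (adjusted p = 0.0732), with a replicate block (adjusted p = 0.0687) and without peritoneum replicate 1 or 2, native bladder replicate 1 or 2 or experimental replicate 1 or 2 (adjusted p from 0.0827 to 0.186). COL25A1, known from neurons and developing muscle, had 14 and 48 counts in peritoneum and 0 in native bladder, at least 24.5-fold higher by the same measure (adjusted p = 0.0244), but did not pass with DESeq2 (adjusted p = 0.243) or without peritoneum replicate 2 or native bladder replicate 1 or 2 (adjusted p from 0.118 to 0.153).

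COL28A1, kept outside the classes, was 1 of 6 collagen genes with their highest mean in the control neobladder and the only 1 of those 6 called in a pairwise comparison. It stood at 4.69 and 1.43 CPM in peritoneum, 1.86 and 1.05 CPM in native bladder, 4.83 and 2.04 CPM in experimental and 12.1 and 44.8 CPM in control neobladder. Both control libraries lay above all others, although they differed from each other. COL28A1 was lower in experimental than in control neobladder (log2 fold change -3.03, SE 0.78, adjusted p = 0.0205) and higher in control neobladder than in native bladder (log2 fold change 4.28, SE 0.84, adjusted p = 0.00545). On library totals alone it did not pass between the neobladders (adjusted p = 0.083), nor without experimental replicate 1 or 2 or control replicate 2 (adjusted p from 0.051 to 0.161), and its call against native bladder was lost without native bladder replicate 2 (adjusted p = 0.0509).

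Peritoneum, the graft tissue, was set against the bladder's own mucosa. The genes higher in peritoneum were fibrillar, fibril-associated and network genes and COL25A1, and the lower ones COL13A1 and COL17A1. Of the 36 genes tested 17 were called (47.2%), 15 higher and 2 lower, against 21.1% of all genes (9.93% higher and 11.1% lower). By class, 5 of 10 fibrillar, 3 of 5 fibril-associated and 6 of 8 network genes were higher, none of 8 basement membrane genes was called, and of 4 transmembrane genes 1 was higher and 2 lower. The median log2 fold change was 1.83 over the collagen genes and 0.01 over all genes. Without native bladder replicate 2 the count was 11, against 9.19% of all genes, and 10 of the 17 calls held in all 8 fits that left out 1 library. Adipocyte markers (4 genes) also summed to 725 and 456 CPM in peritoneum against at most 68.7 CPM elsewhere, but did not all move together. ADIPOQ stood at 618 and 381 CPM in peritoneum, where LEP had 0 counts. In control neobladder nearly all of the sum was CIDEC, at 67.95 and 44.4 CPM. The part of the adipocyte markers in the difference was not tested.

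**Figure D4:**
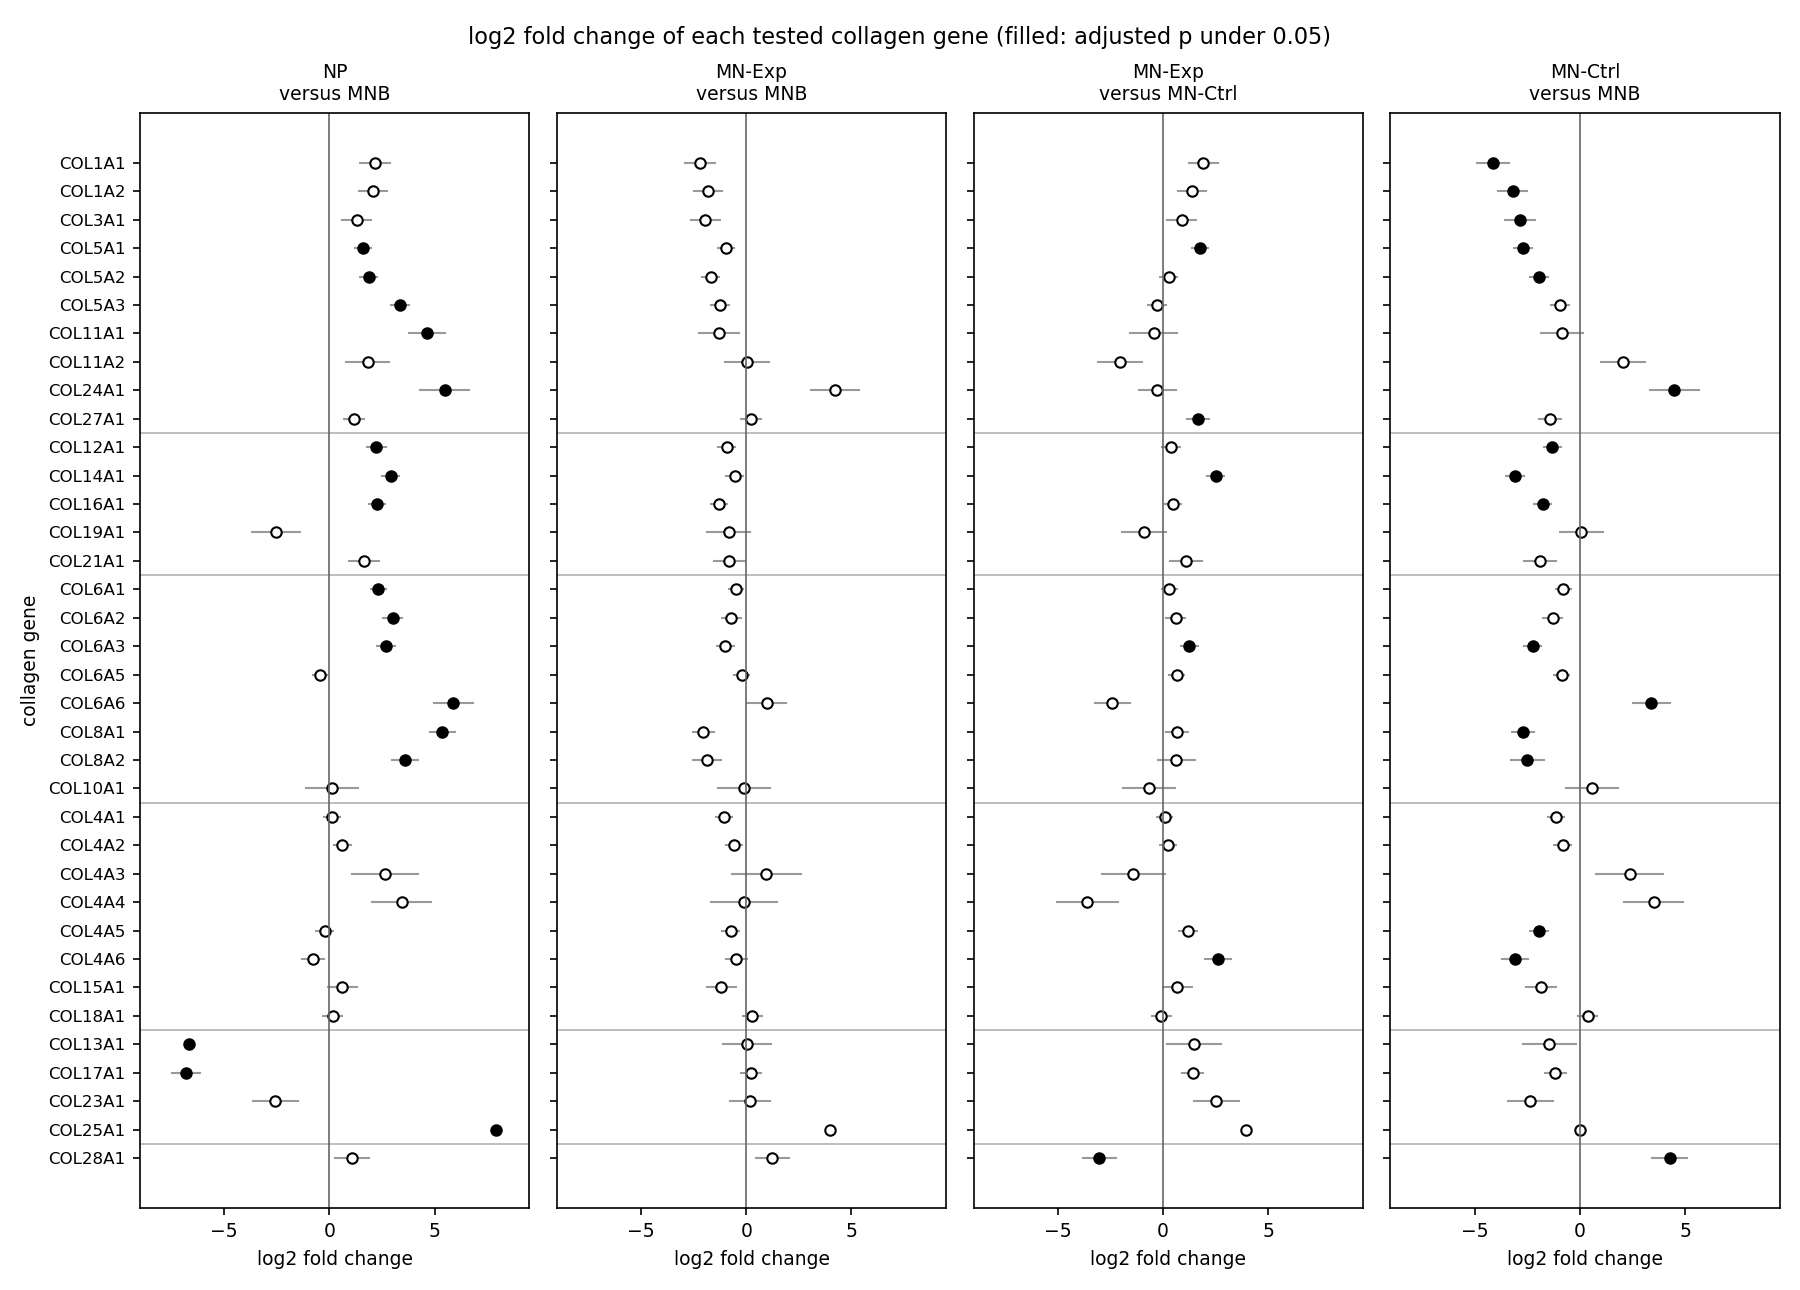
log2 fold change of each tested collagen gene in 4 comparisons, with bars of 1 SE; filled points have an adjusted p under 0.05 and lines separate the classes from fibrillar (top) to COL28A1 (bottom). In the second panel (MN-Exp versus MNB) 0 of 36 points are filled, and in the fourth (MN-Ctrl versus MNB) 16 are; COL13A1 and COL25A1 have no bar where a group had 0 counts.

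Between experimental neobladder and native bladder no collagen gene passed the test. By edgeR 0 of 36 were called, where 0.0967% of all genes were (0.0423% higher and 0.0544% lower). An unadjusted p under 0.05 was found for 13 of the 36, beside 1326 of all 16549 genes tested. Of the 36 collagen genes 11 had a positive fold change, with a median of -0.64 against 0.02 over all genes. DESeq2 called 7, 6 of them lower in experimental neobladder, where it called 1.6% of all genes, and edgeR with no low-count filter called 5, against 1.32%. Among these were COL1A1 (log2 fold change -2.19, adjusted p = 0.00816), COL5A2 (-1.68, adjusted p = 0.00591) and COL8A1 (-2.02, adjusted p = 0.00722), while COL24A1 was higher. With the 2 groups fitted alone, or without either control neobladder library, 9 genes were called, all lower, against 3.11% and 1.65% of all genes. In each of these 3 fits the 9 were COL1A1, COL1A2, COL3A1, COL4A1, COL5A2, COL6A3, COL8A1, COL15A1 and COL16A1. For each of these 9 both experimental libraries lay below both native bladder libraries. Since the 9 were picked by fits on these same libraries, this adds no support. Genes outside the 9, such as COL4A2 and COL14A1, lay the same way.

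Experimental against control neobladder is the comparison of the 2 operated groups. Of the 36 genes 6 were called (16.7%), 5 higher and 1 lower, beside 21.7% of all genes (10.4% higher and 11.3% lower). The 5 that rose were COL4A6, COL5A1, COL6A3, COL14A1 and COL27A1, and COL28A1 fell. Of the markers, 5 of 5 urothelial, 4 of 6 smooth muscle and 2 of 6 fibroblast genes (FBLN1 and PI16) also rose. The fibroblast markers DCN, PDGFRA and DPT were not called (log2 fold changes -0.12, -0.72 and -0.32). LUM was not called either but lay the other way, at 330 and 210 CPM in experimental and 163 and 113 CPM in control neobladder. The part of these cell types was not tested. Leaving out control replicate 1 gave 14 genes, 13 higher, against 35.3% of all genes, and leaving out experimental replicate 2 gave 1, COL14A1, against 7.7%. DESeq2 called 11 (28.4% of all genes), edgeR with no low-count filter 10 (16.5%) and with the 2 groups alone 3 (16.1%). The split was 5 higher and 1 lower with TMM factors, 3 and 2 with DESeq2 size factors, and 7 and 0 on totals, each of these 2 scalings calling 21.9% of all genes. On totals the median of all genes moved from 0.11 to 0.89. The collagen median was 0.61, 0.51 and 1.24 under these scalings.

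Control neobladder against native bladder showed lower collagen levels in the control. Of the 36 genes 16 were called (44.4%), 13 lower and 3 higher, against 22.3% of all genes (11.1% lower and 11.2% higher), with a median of -1.30 beside -0.11. The 13 lower genes were COL1A1, COL1A2, COL3A1, COL5A1, COL5A2, COL12A1, COL14A1, COL16A1, COL6A3, COL8A1, COL8A2, COL4A5 and COL4A6. The 3 higher ones were COL24A1, COL6A6 and COL28A1. Only COL1A1, COL4A6, COL5A1, COL6A3 and COL14A1 were called in all 8 fits that left out 1 library. COL12A1 was lost with DESeq2 size factors (adjusted p = 0.0645) and without peritoneum replicate 1 or 2, native bladder replicate 1 or 2, experimental replicate 1 or 2 or control replicate 2 (adjusted p from 0.0553 to 0.263). COL8A2 was lost with the same size factors (adjusted p = 0.052) and without peritoneum replicate 1, native bladder replicate 1 or 2, experimental replicate 1 or 2 or control replicate 1 or 2 (adjusted p from 0.0509 to 0.142). On library totals alone the split was 19 lower and 1 higher (24.7% of all genes), with the median of all genes at -0.97. Without native bladder replicate 1 or 2 the test called 8 or 6 genes, against 8.01% or 9.25% of all genes.

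Both neobladders lay far below peritoneum. Experimental neobladder differed from peritoneum in 21 of 36 genes (58.3%), 19 lower and 2 higher, against 24.2% of all genes (11.8% lower and 12.4% higher), and the 2 higher were COL13A1 and COL17A1. Control neobladder differed in 26 (72.2%), 24 lower and 2 higher, against 42.3% (20.6% lower and 21.6% higher), and the 2 higher were COL17A1 and COL28A1. The median log2 fold changes were -2.49 and -2.53, beside -0.01 and -0.06 over all genes. In all 8 fits that left out 1 library, 15 of the 21 and 19 of the 26 calls held. These comparisons share the peritoneum libraries, and those above share native bladder or control libraries, so they are not independent of each other.

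Within a library, the ratio of 2 chains does not depend on scaling. COL1A1 counts per COL1A2 count stood at 0.757 and 1.04 in peritoneum, 0.891 and 0.785 in native bladder, 0.604 and 0.680 in experimental and 0.459 and 0.380 in control neobladder. The type I helix usually holds more chains from COL1A1 than from COL1A2, but counts are not corrected for transcript length, so the ratios can be compared between libraries only. Both neobladders lay below both unoperated tissues, with the control lowest. COL3A1 counts per COL1A2 count ran the other way, from 0.459 and 0.581 in peritoneum to 1.19 and 1.06 in control neobladder, with 0.663 and 1.11 in native bladder and 0.812 and 0.827 in experimental neobladder. For type VI, COL6A3 counts per COL6A1 count stood at 14.2 and 18.2 in peritoneum, 13.3 and 11.9 in native bladder, 8.69 and 9.14 in experimental and 5.45 and 3.94 in control neobladder, with no overlap between groups. COL4A6 counts per COL4A5 count were lowest in control neobladder, at 0.0984 and 0.143, against 0.278 and 0.361 in experimental neobladder, 0.333 and 0.214 in native bladder and 0.242 and 0.147 in peritoneum. These ratios are descriptions without a test, and other chain pairs were also computed. COL4A1 counts per COL4A2 count stood at 4.92 and 1.93 in control neobladder, spanning the other groups. Groups also overlapped for COL5A1 per COL5A2 and for COL8A1 per COL8A2.

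**Figure D5:**
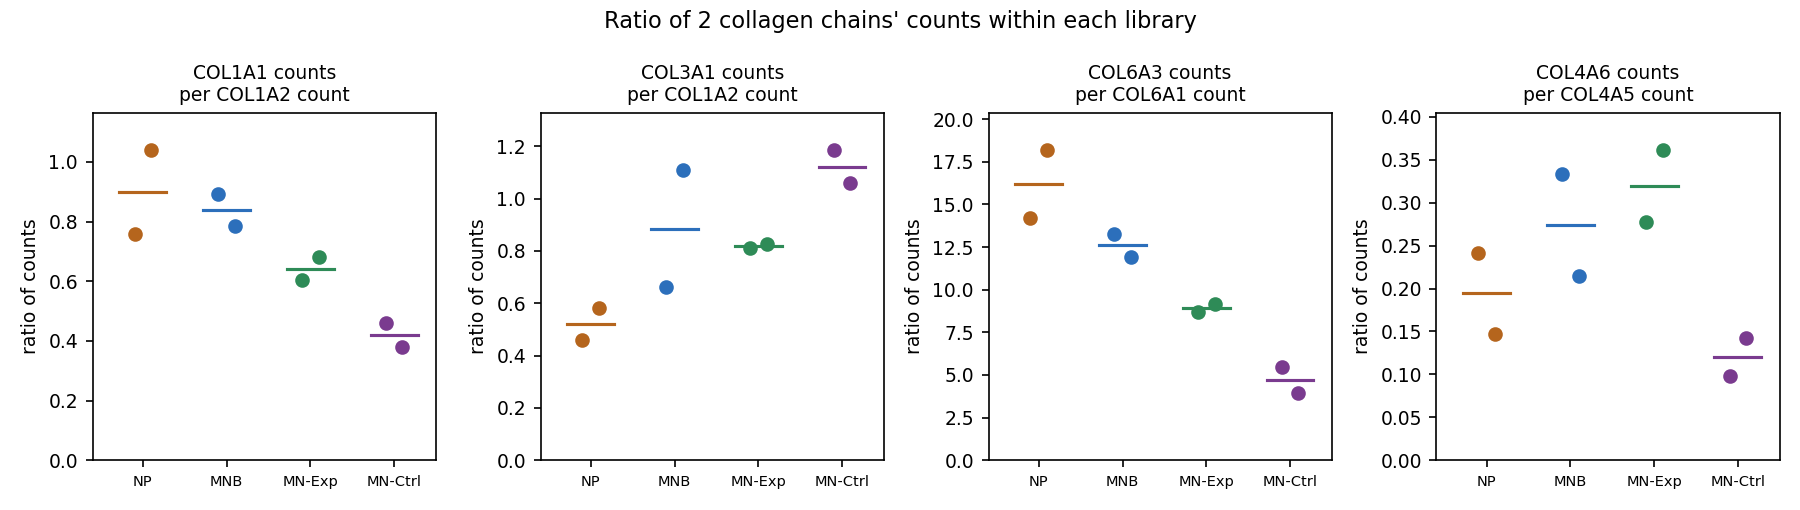
Ratio of the counts of 2 collagen chains within each library, by group; points are libraries and bars group means, each axis starting at 0. COL1A1 per COL1A2 is lowest in the control neobladder, at 0.459 and 0.380, where COL3A1 per COL1A2 reaches 1.19 and 1.06.

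Of 22 listed genes that modify and fold collagen chains, 19 were found and tested, and most of those called against peritoneum were lower in the neobladders. In experimental neobladder 11 were lower and 1 higher than in peritoneum, and in peritoneum 8 were higher and 1 lower than in native bladder. Between the neobladders 1 rose and 2 fell, and 0 were called between experimental neobladder and native bladder. P4HA3, a prolyl hydroxylase subunit, stood at 42.0 and 43.6 CPM in peritoneum, 2.58 and 2.76 CPM in native bladder, 2.29 and 3.25 CPM in experimental and 1.31 and 0.375 CPM in control neobladder. P3H2, a prolyl 3-hydroxylase active on type IV collagen, stood at 43.8 and 46.8 CPM in peritoneum and 1.87 to 9.94 CPM elsewhere. The chaperone FKBP10 stood at 236 and 239 CPM, 64.5 and 68.1 CPM, 27.4 and 24.8 CPM and 18.5 and 11.4 CPM in the 4 tissues in the same order, and FKBP14 ran alike, from 86.4 and 67.2 CPM to 7.95 and 5.62 CPM. P3H1, which hydroxylates type I chains, went against them: it stood at 759 and 1446 CPM in experimental neobladder and 934 and 561 CPM in native bladder, against 140.2 and 123 CPM in peritoneum and 173 and 49.8 CPM in control neobladder (log2 fold change 3.31, SE 0.67, adjusted p = 0.00638 between the neobladders). In control neobladder 6 genes were lower and 2 higher than in native bladder, and 10 lower and 2 higher than in peritoneum. The median log2 fold change between the neobladders was 0.48 over this list, beside 0.11 over all genes, and the shares of all genes called in each comparison are those given above. When 1 library was left out the list gave 6 to 14 calls against peritoneum in experimental neobladder, 2 to 12 between peritoneum and native bladder and 2 to 15 between the neobladders, the last being highest without control replicate 1. The share of all genes called moved as well in these 8 fits, from 9.71% to 35.8%, from 7.46% to 32.2% and from 7.7% to 35.3% in the same order. It ran from 0.0167% to 1.65% between experimental neobladder and native bladder and from 8.01% to 36% between control neobladder and native bladder, and the counts given for the lists below are to be read beside these shares.

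Of 15 genes that trim procollagen and cross-link fibrils, 14 were tested. In peritoneum 7 were higher than in native bladder, and in experimental neobladder 9 were lower than in peritoneum, with 0 called the other way. Between the neobladders 3 rose and none fell, and 0 were called between experimental neobladder and native bladder. ADAMTS2, which removes the N-propeptide, stood at 395 and 342 CPM in peritoneum, 26.2 and 29.7 CPM in native bladder, 16.7 and 15.3 CPM in experimental and 7.40 and 3.56 CPM in control neobladder. PCOLCE, the enhancer of C-propeptide removal, stood at 2202 and 2491 CPM, 211 and 179 CPM, 104 and 84.9 CPM and 47.9 and 43.3 CPM in the same order. Its relative PCOLCE2 rose from 3.16 and 1.31 CPM in control to 19.7 and 29.4 CPM in experimental neobladder (log2 fold change 3.39, SE 0.50, adjusted p = 0.00111). Control neobladder was lower in 8 than native bladder and in 12 than peritoneum, with none higher, and the median between the neobladders was 0.82. Transglutaminase 2 (TGM2), a cross-linking enzyme also of epithelium and endothelium, stood at 122 and 164 CPM in experimental and 6.10 and 3.56 CPM in control neobladder (log2 fold change 4.86, SE 0.52, adjusted p = 0.000184). With 1 library left out the list gave 2 to 9 calls between the neobladders and 0 to 4 between experimental neobladder and native bladder, the highest counts being those without a control library.

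Of 13 collagen receptor and uptake genes 11 were tested: 4 were higher and 2 lower in peritoneum than in native bladder, 2 rose from control to experimental neobladder, and 0 were called between experimental neobladder and native bladder. DDR2, a receptor kinase for fibrillar collagen, stood at 137 and 85.0 CPM in peritoneum, 18.5 and 19.5 CPM in native bladder, 7.04 and 6.58 CPM in experimental and 5.44 and 0.749 CPM in control neobladder. ANTXR1, a membrane protein that binds collagen, rose from 19.7 and 16.9 CPM in control to 44.0 and 43.0 CPM in experimental neobladder (log2 fold change 1.25, SE 0.34, adjusted p = 0.0246), a call lost without peritoneum replicate 2, native bladder replicate 1 or 2 or experimental replicate 1 or 2 (adjusted p from 0.0585 to 0.14). ANTXR2 stood at 15.2 and 22.1 CPM and 36.3 and 32.5 CPM there (adjusted p = 0.0932). Control neobladder was lower in 4 than native bladder and in 5 than peritoneum, experimental neobladder was lower in 4 and higher in 2 than peritoneum, and the median between the neobladders was 0.74. The endocytic collagen receptor MRC2 stood at 52.0 and 62.8 CPM in peritoneum and 4.36 to 14.7 CPM elsewhere. The shared integrin chain ITGB1 ran from 107 to 489 CPM and was not called. With 1 library left out this list gave 0 to 6 calls between the neobladders, with 0 without either experimental library, and 1 to 6 between peritoneum and native bladder.

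Of 16 partners of collagen in the basement membrane 15 were tested, and the control neobladder was lower than native bladder in 11 and higher in none. Between the neobladders 6 rose and none fell, 0 were called between experimental neobladder and native bladder, and 6 were higher and 2 lower in peritoneum than in native bladder. LAMA5, the laminin chain of most adult epithelia and vessels, stood at 48.7 and 41.1 CPM in peritoneum, 61.3 and 59.1 CPM in native bladder, 41.4 and 44.0 CPM in experimental and 5.34 and 2.81 CPM in control neobladder (log2 fold change 3.36, SE 0.41, adjusted p = 0.000373 between the neobladders). Against peritoneum, experimental neobladder was lower in 7 and higher in 2, control neobladder lower in 12 and higher in 2, and the median between the neobladders was 1.29. Perlecan (HSPG2) rose from 19.5 and 15.7 CPM to 45.6 and 47.4 CPM (log2 fold change 1.40, SE 0.36, adjusted p = 0.0197), a call lost without experimental replicate 1 or 2 (adjusted p from 0.0904 to 0.122). The laminin chain LAMB2 rose from 3.38 and 0.562 CPM to 12.6 and 14.9 CPM (log2 fold change 2.69, SE 0.57, adjusted p = 0.00806). SPARC, a collagen-binding glycoprotein, stood at 18947 and 19867 CPM in peritoneum, 2989 and 3423 CPM in native bladder, 991 and 1236 CPM in experimental and 460.1 and 181 CPM in control neobladder. With 1 library left out the list gave 3 to 12 calls between the neobladders (lowest without experimental replicate 2, highest without control replicate 1), 6 to 13 between control neobladder and native bladder and 2 to 8 between peritoneum and native bladder, both lowest without either native bladder library. On library totals alone the last count was 4, 2 in each direction. Between experimental neobladder and native bladder edgeR called 0 genes of each list. An unadjusted p under 0.05 was found for 5, 5, 4 and 3 members of the 4 lists, in the order given here. That held for 1326 of all 16549 genes tested. DESeq2 called 1, 1, 0 and 0 members of these lists, against 1.6% of all genes. The part of the smooth muscle and urothelial markers in the differences of these lists was not tested.

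Several of the genes lie near each other on the Sscrofa11.1 assembly, by RefSeq coordinates. COL4A1 (chromosome 11, 76858332 to 76997409) and COL4A2 (chromosome 11, 76996885 to 77161617) overlap by 525 bases, and COL4A4 and COL4A3 on chromosome 15 by 663. Reads in such overlaps cannot be told apart unless strand was used, which is not given in the sources used here. COL4A6 (chromosome X, 88634925 to 88750938) and COL4A5 (chromosome X, 88958837 to 89183306) lie 207898 bases apart with no gene between them, and COL3A1 and COL5A2 lie 16177 bases apart on chromosome 15. COL6A6 and COL6A5, 43574 bases apart on chromosome 13 with 2 genes between them, stood at 35.1 and 43.3 CPM and 24.5 and 36.2 CPM in peritoneum but at 0.404 and 0.897 CPM and 42.9 and 39.8 CPM in native bladder. COL1A1 (chromosome 12, 26379087 to 26397180), COL1A2 (chromosome 9, 74174484 to 74210407), COL8A1 (chromosome 13, 159216138 to 159374718), COL14A1 (chromosome 4, 18690197 to 18925111), COL17A1 (chromosome 14, 114959404 to 115007734) and COL28A1 (chromosome 9, 77670890 to 77841939) are not among these neighbours.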

How the data were processed

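RNA of 8 tissue samples was made into Smart-seq2 libraries, per the labels' protocols. Counts of reads for each Ensembl gene were deposited unnormalized, 1 file per sample; the tools named are Trim Galore, HISAT2 and HTSeq (0.11.1), and the build Sscrofa11.1, per the submitters' processing notes; settings, strand and annotation release are not given in the sources used here. Symbols existed for 15029 of 31907 genes. Genes were kept by filterByExpr (16549), scaled by TMM and tested in 1 quasi-likelihood fit of 4 groups (edgeR 4.0.16, limma 3.58.1, R 4.3.3; 4 residual degrees of freedom, dispersion 0.146), at a Benjamini-Hochberg adjusted p under 0.05. The SE of a fold change is its size divided by the root of the F statistic. On the scaled level 3 counts in a library equal 0.224 to 0.562 CPM. The test was tried on simulated data. Alternatives tried were no filter, unscaled library totals, DESeq2 1.42.0 and its size factors, a test against a 1.5-fold change, replicate block, 2 groups alone and leaving out each library. Described genes are those called at least once, their partner chains, the member of each class with the highest mean, and per related list up to 4 with the smallest p and the highest mean. The members and lists were chosen with earlier results of these data known. No replicate pair was identical. RefSeq coordinates were matched by symbol for 39 of 40 genes, 38 of them placed on a chromosome. The result of 1 marker list is not reported here.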

Additional observations from a re-analysis of the deposited data

How the results depend on the processing

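All 86 calls of collagen genes kept their direction under every alternative in which the gene was tested. Of these, 76 remained called on library totals alone, 82 with DESeq2 size factors, 84 with DESeq2, 83 without a low-count filter, 76 against a 1.5-fold change and 71 with the 2 groups alone. Replicate number as a block kept 82 of 86 calls and gave 5 genes in place of 6 between the neobladders. The labels tie no replicate number to an animal, and replicate differences correlated between groups at -0.08 to 0.09, so the numbers were not taken as pairs. Between the neobladders, 6 collagen genes were called as reported, 11 by DESeq2, 10 without the filter, 3 with the 2 groups alone and 1 to 14 when 1 library was left out. Between experimental neobladder and native bladder, the reported 0 became 7 by DESeq2, 5 without the filter, 9 with the 2 groups alone and 0 to 9 when 1 library was left out. Leaving out 1 library gave 6 to 21 genes in place of 16 for control neobladder against native bladder, 15 to 22 in place of 21 for experimental neobladder against peritoneum, 21 to 25 in place of 26 for control neobladder against peritoneum, 11 to 21 in place of 17 for peritoneum against native bladder, and 22 to 28 in place of 27 over the 4 groups. A group left with 1 library was assumed to vary like the others. Over the 4 groups, neither the 1.5-fold test nor the 2 groups alone gives a value. The causes were not tested. With both other scalings and with each library left out, no median of the collagen genes changed sign in the 6 comparisons; medians under the other alternatives were not computed. Depth limits the genes of fewest counts, such as COL13A1 with 65 and COL25A1 with 66 counts over the 8 libraries.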
